A study of Homo sapiens with 4 samples.

Results

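Interferon-stimulated genes were examined as a group of 41 genes named by symbol, of which 40 were read on the arrays and 1 was not analysed here, among 19775 genes in all. The rule took genes by symbol, and no measured value entered it. The data came from 4 Affymetrix oligonucleotide arrays that each held RNA of a single engineered colorectal cancer line, in 2 pairs. The HCT116 pair, made from a line of human colorectal carcinoma, consisted of HCT116-Vec, taken from its name as a vector control, and HCT116-CDX1, taken as the same line given CDX1, which encodes an intestinal homeobox factor. The LS174T pair, made from a human colon adenocarcinoma line that secretes mucin, consisted of LS174T-siVec, taken as the vector control of a silencing construct, and LS174T-siCDX1, taken as the line with CDX1 silenced. The labels gave no promoter, clone, dose, time or interferon treatment for any of the lines. Expression was summarised by RMA in log2 units, so that a difference of 1 is 2-fold. For each gene the probe set of highest average level on the 4 arrays was used, and 20 members had several probe sets.

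Interferons are secreted by cells that sense viral nucleic acid, and bind receptors whose JAK kinases activate STAT proteins. Activated STAT proteins join IRF9 and bind the interferon-stimulated response element, a short motif in the promoters of genes that block viral entry, translation and replication. Epithelial cells of the intestine respond to type I and type III interferons, and some of these genes are transcribed at a low level without any added interferon.

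With 1 array per group, no difference below has a replicate check, no p-value was computed, and precision is limited by how few arrays there are. A gene was measured in a comparison where the brighter of the 2 arrays reached 6, and such a gene is said to have risen, fallen or changed where it differed at least 2-fold. CDX1 stood at 8.21 in HCT116-Vec, 8.24 on the HCT116-CDX1 array, 10.46 in LS174T-siVec and 9.06 in LS174T-siCDX1. Its probe set thus showed no rise in HCT116. Directions drawn for that pair rest on the label, and its second array is written as the array labelled HCT116-CDX1. KRT20, the gene named in the title of the series, differed by 3.03 in the HCT116 pair and by -2.70 in the LS174T pair. Of 8 intestinal epithelial markers, all reached 6 on at least 1 array, with EPCAM between 12.82 and 13.24. At least 2-fold higher in LS174T-siVec than in HCT116-Vec were 3 of them, and 1 was lower, beside 6.03% and 7.33% of all genes. VIL1, CDH17 and LGALS4 were read at 7.04, 6.19 and 6.36 in HCT116-Vec and 10.91, 11.62 and 13.45 in LS174T-siVec. CDH1 went the other way, at 10.59 in HCT116-Vec and 8.80 in LS174T-siVec. The 6 leukocyte markers read, among them PTPRC and CD3E, lay between 4.78 and 8.07 and differed by at most 0.386 within a pair. The summed log2 levels of those markers ran from 39.1 to 39.95 over the 4 arrays. Within the LS174T pair 3 of the 8 epithelial markers fell, KRT8, KRT19 and LGALS4, beside 1.25% of all genes. All 8 had differences below 0 there, and as the mean of its probe sets KRT19 differed by -0.75. On the array labelled HCT116-CDX1, 1 of the 8 rose, CDH17, beside 0.916% of all genes. Of 6 fibroblast markers 5 reached 6 on at least 1 array, with the highest reading at 9.14. With leukocyte markers read as high as 8.07 and fibroblast markers higher still, a level of 6 or more is a rule for a measured gene. It does not by itself show that a transcript was present.

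The promoters of 31 of the 40 genes were found in the RefSeq table of build GRCh38.p14, as 250 bases before to 50 bases after the start of the gene. The core of the response element was searched on both strands as GAAA, any 2 bases and GAAA again, with overlapping matches counted; on the opposite strand it reads as TTTC, any 2 bases and TTTC. It was present in 20 of the 31 promoters (64.5%) and in 3.57% of all 35116 promoters of that table. The core of the gamma-activated site, searched as TTCNNNGAA, which reads the same on both strands, was present in 8 of the 31 (25.8%) and in 7.66% of all. The 7 promoters below are those of 5 genes that changed within a pair and of IFI6 and HERC5, which differed most between the lines among the genes lower in LS174T. Promoters were printed for genes that hold a match alone, to show the motif in genes that moved in different directions. Of 6 genes that changed within a pair and have a promoter in the table, 5 hold a match, and IFI16, with the largest rise in LS174T, holds 0. Each run covers the 180 bases before the start of the gene, 5′ to 3′ on the strand of the gene, with whole matches to the response element core in capitals.
IFIT1, chr10:89392443-89392622, plus strand: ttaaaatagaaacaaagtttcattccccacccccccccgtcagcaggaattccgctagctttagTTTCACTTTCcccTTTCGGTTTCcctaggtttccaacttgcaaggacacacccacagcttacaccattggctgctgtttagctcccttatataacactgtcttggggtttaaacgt
ISG15, chr1:1013317-1013496, plus strand: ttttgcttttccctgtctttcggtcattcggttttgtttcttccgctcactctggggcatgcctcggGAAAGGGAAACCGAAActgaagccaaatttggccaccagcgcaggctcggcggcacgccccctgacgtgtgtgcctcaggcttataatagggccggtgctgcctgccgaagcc
SAMD9, chr7:93117980-93118159, minus strand: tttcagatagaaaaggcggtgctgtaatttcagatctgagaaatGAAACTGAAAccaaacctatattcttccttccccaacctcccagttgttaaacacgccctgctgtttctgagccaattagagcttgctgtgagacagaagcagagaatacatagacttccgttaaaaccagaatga
IFI27, chr14:94110556-94110735, plus strand: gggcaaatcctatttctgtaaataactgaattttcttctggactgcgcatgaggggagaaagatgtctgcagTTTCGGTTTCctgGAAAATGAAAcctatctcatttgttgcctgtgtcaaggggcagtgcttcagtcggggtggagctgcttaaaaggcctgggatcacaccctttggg
IFITM1, chr11:313860-314039, plus strand: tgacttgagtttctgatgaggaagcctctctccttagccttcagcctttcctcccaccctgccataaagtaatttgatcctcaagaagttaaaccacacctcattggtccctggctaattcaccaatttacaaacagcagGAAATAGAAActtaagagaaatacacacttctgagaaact
IFI6, chr1:27672193-27672372, minus strand: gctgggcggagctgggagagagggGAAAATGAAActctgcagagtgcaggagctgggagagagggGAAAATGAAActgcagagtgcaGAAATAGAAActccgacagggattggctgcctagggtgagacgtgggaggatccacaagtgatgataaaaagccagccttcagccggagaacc
HERC5, chr4:88456939-88457118, plus strand: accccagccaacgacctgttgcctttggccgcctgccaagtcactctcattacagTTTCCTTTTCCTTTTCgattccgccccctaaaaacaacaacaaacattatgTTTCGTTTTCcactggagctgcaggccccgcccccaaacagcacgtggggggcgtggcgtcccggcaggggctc
IFIT1, ISG15 and IFI27 have 2 matches each in these runs, IFI6 and HERC5 have 3, and SAMD9 and IFITM1 have 1, with a further match in IFITM1 that crosses the start of the gene and is not shown. The matches overlap one another in ISG15 and, for the first pair, in HERC5. A match is a run of letters and not a measured binding site.

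**Figure D1:**
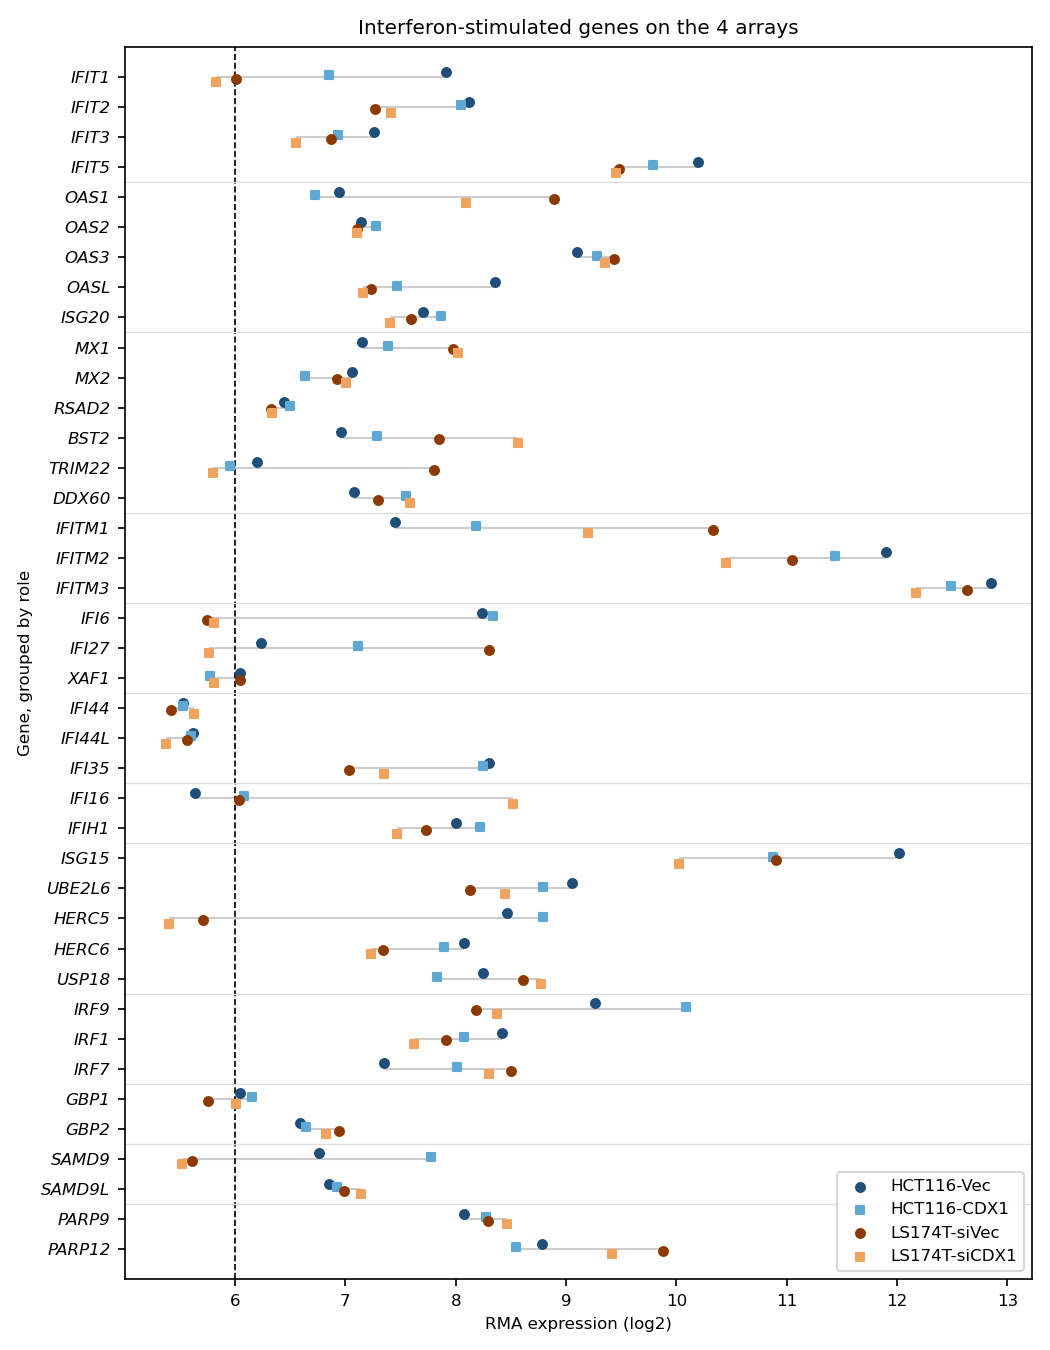
RMA expression (log2, horizontal axis) of each of the 40 genes on each of the 4 arrays, grouped by role, with a grey line from the lowest to the highest array and a dashed line at the level of 6. HERC5 had the widest range, 3.39, and 12 genes had ranges under 0.5.

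Within both pairs most interferon-stimulated genes differed by less than 2-fold, while 7 of the 40 changed in 1 of the pairs and 0 in both. Of all genes measured in a pair 1.89% changed in HCT116 and 1.85% in LS174T, and 29 of the 16530 measured in both pairs (0.175%) changed in both, so that a count of 0 there is no feature of these genes. Of the 40 genes, 29 were at 6 or more on all 4 arrays, 9 lay on both sides of that level and 2, IFI44 and IFI44L, lay under it on all 4. The range over the 4 arrays was under 0.5 for 12 genes, among them OAS2, OAS3, MX2, RSAD2 and PARP9, and 1 or more for 17.

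On the array labelled HCT116-CDX1 against HCT116-Vec, 38 members were measured, and 2 of them fell while 1 rose. The changed share was 7.89%, and among all 16914 genes measured in that pair 1.89% changed, 0.97% downward and 0.916% upward. The remaining 35 members stayed within 2-fold. In RNA of a whole culture, fewer cells that express a gene and less RNA per cell cannot be told apart. The median difference of the members was 0.06, with 20 above 0 and 18 below, and the median over all measured genes was -0.01.

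ISG15, which encodes a ubiquitin-like protein that is conjugated to other proteins and also secreted, had the largest fall of the members. Its level was 12.01 in HCT116-Vec and 10.87 with the CDX1 label, a fall of 2.20-fold. IFIT1, whose protein binds viral RNA that lacks the host cap methylation, stood at 7.92 and 6.85, a fall of 2.09-fold. Both genes were read by 1 probe set each. The other IFIT genes, which lie beside IFIT1 on chromosome 10, were lower by smaller amounts, at -0.07 for IFIT2, -0.32 for IFIT3 and -0.41 for IFIT5. OASL, an oligoadenylate synthetase-like protein that enhances RNA sensing, was just outside the threshold at 8.36 and 7.47, and both of its probe sets were lower, at -0.89 and -0.95. In the LS174T pair OASL stood at 7.23 and 7.16.

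SAMD9, a growth-restricting antiviral protein, was the member that rose in HCT116, from 6.76 to 7.77, or 2.02-fold. It was under 6 in the LS174T pair, at 5.61 and 5.52. Its second probe set rose by 1.002. This difference lies at the threshold, and it was 0.991 to 0.998 after 3 other scalings of the arrays, just under 2-fold, so that 0 members rose and 2 fell there. SAMD9L, its neighbour on chromosome 7 and close relative, differed by 0.07. Short of the threshold on the same array were IFI27 at 0.88, IRF9 at 0.82, IFITM1 at 0.73 and IRF7 at 0.67. IRF9 is the DNA-binding partner of the activated STAT proteins, and IRF7 is the factor that amplifies interferon gene transcription.

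In LS174T-siCDX1 against LS174T-siVec, 35 members were measured, and 3 of them fell while 1 rose. The changed share was 11.4%, beside 1.85% of all 16896 genes measured, 1.25% downward and 0.598% upward. The remaining 31 members stayed within 2-fold. The members' median was -0.08, with 14 above 0 and 21 below, and the median over all genes was -0.01.

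IFI27, whose protein is directed to mitochondria and is among the genes most responsive to interferon, had the largest fall. It was read at 8.30 in LS174T-siVec and at 5.76 with siCDX1, a fall of 2.54 on the log2 scale, 5.82-fold as read, and at least 4.93-fold against a level of 6. In the HCT116 pair it stood at 6.23 and 7.12, so that the higher level of each pair was that of the array labelled HCT116-CDX1 and of LS174T-siVec. TRIM22, a ubiquitin ligase that restricts viral transcription, was at 7.80 with the silencing vector and 5.80 with siCDX1. That is a fall of 3.99-fold as read, or at least 3.48-fold against a level of 6, and the HCT116 pair was at 6.20 and 5.96. Its level in LS174T-siVec thus stood 1.599 above that of the next array.

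IFITM1, a membrane protein that blocks the fusion of viruses with the cell, fell from 10.34 to 9.20, or 2.19-fold. It was read at 7.45 in HCT116-Vec and 8.19 on the array labelled HCT116-CDX1. Its neighbours on chromosome 11, IFITM2 and IFITM3, were lower on both modified arrays, at -0.47 and -0.36 in the HCT116 pair and -0.60 and -0.47 in the LS174T pair. The IFITM genes resemble each other so closely that their probe sets may read more than 1 of them.

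IFI16, a nuclear sensor of foreign DNA, was the member that rose in LS174T-siCDX1. Its level was 5.63 in HCT116-Vec, 6.08 on the array labelled HCT116-CDX1, 6.03 in LS174T-siVec and 8.52 in LS174T-siCDX1. The last stood apart from the other 3. The rise was 2.48 on the log2 scale, or 5.60-fold. Its 2 other probe sets were read at 4.998 and 4.22 in LS174T-siVec and at 8.19 and 6.51 in LS174T-siCDX1. With levels under 6 set to 6 those differences were 2.19 and 0.51, so that 1 of them bounds the rise above 2-fold. IFIH1, the cytoplasmic RNA sensor known as MDA5, differed by -0.26.

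Other members moved less in this pair. OAS1, an oligoadenylate synthetase that activates the RNA-degrading RNase L, was read at 8.89 and 8.09, beside 6.94 and 6.72 in the HCT116 pair. Its difference was -0.80, and its second probe set differed by -1.002. ISG15 stood at 10.90 and 10.03, or -0.88, so that it was lower on both modified arrays, by at least 2-fold in HCT116 alone. BST2, also called tetherin, which holds budding virus at the cell surface, was higher in LS174T-siCDX1 at 0.72.

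**Figure D2:**
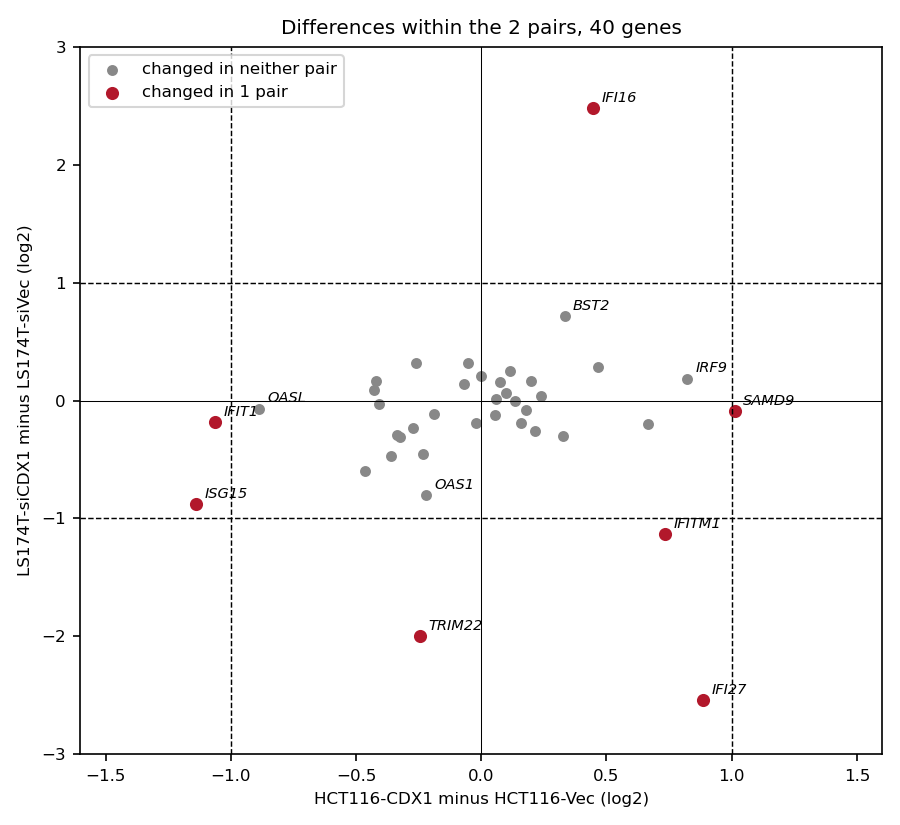
Difference of each of the 40 genes in the HCT116 pair (horizontal axis, log2) and in the LS174T pair (vertical axis, log2), with dashed lines at 2-fold; red points changed in 1 pair. IFI27 and IFITM1 lay lower right, ISG15 lower left and IFI16 at the top, and 0 genes lay beyond 2-fold on both axes.

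The 2 pairs share no array, and the directions of the members were counted over both. Of 35 members measured in both pairs, 13 were lower on both modified arrays (37.1%, beside 28% of 16530 genes) and 9 were higher on both (25.7%, beside 25.3%). A further 8 (22.9%, beside 23.5%) were higher on the array labelled HCT116-CDX1 and lower in LS174T-siCDX1, the direction of the CDX1 labels, and 5 (14.3%, beside 23.2%) had the opposite pattern.

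Between the 2 vector arrays, LS174T-siVec against HCT116-Vec, 14 of 38 measured members differed at least 2-fold, 6 higher and 8 lower in LS174T. The changed share was 36.8%, beside 13.4% of all 17043 genes measured, or 6.03% higher and 7.33% lower. The members' median was -0.13 and that of all genes 0.01. This comparison uses the control arrays of both pairs, so its values are not independent of those above.

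The genes lower in LS174T-siVec were led by HERC5, the main ligase that attaches ISG15 to its targets. HERC5 was read at 8.47 in HCT116-Vec and 8.79 on the array labelled HCT116-CDX1, against 5.71 in LS174T-siVec and 5.40 in LS174T-siCDX1. The levels of the lines did not overlap, and the vector arrays differed 6.77-fold as read (at least 5.52-fold). Genes named here were picked for their difference between the vector arrays, so such separation is partly given by the choice. Its share over all genes was not counted. HERC6, its neighbour on chromosome 4, differed by -0.74. IFI6, a small hydrophobic protein that limits cell death and viral replication, showed the same order, at 8.23 and 8.33 in the HCT116 pair and 5.75 and 5.81 in the LS174T pair, a difference of at least 4.71-fold between the vector arrays.

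IFIT1 was 3.75-fold lower in LS174T-siVec, at 6.01, and was read at 5.83 in LS174T-siCDX1. OASL was lower at -1.12 and ISG15 at -1.11. IFI35, an interferon-induced leucine zipper protein, was read at 8.30 and 8.25 in the HCT116 pair and 7.03 and 7.35 in the LS174T pair, a difference of -1.27 between the vector arrays. The HCT116 arrays read IRF9 at 9.26 and 10.08 and the LS174T arrays at 8.19 and 8.37, or -1.08 between the vector arrays. The levels of the lines did not overlap for either gene, again with no share over all genes to set beside it. SAMD9 was at -1.15 as read, and at -0.76 with levels under 6 set to 6, a bound on the fall that does not reach 2-fold. UBE2L6, the conjugating enzyme of ISG15, was just outside the threshold at -0.92, while USP18, which removes ISG15 and damps interferon receptor signalling, differed by 0.36. Of these 5 genes of ISG15 conjugation, counting ISG15, HERC5 and HERC6, 2 were at least 2-fold lower, beside 7.33% of all genes, in a list too short to read a share from.

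Higher in LS174T-siVec was IFITM1 by 2.88, or 7.37-fold, the largest such difference among the members. OAS1 was 3.87-fold higher, with a second probe set that differed by 2.35, whereas OAS3 and OAS2, its neighbours on chromosome 12, differed by 0.33 and -0.03. IFI27 was 4.20-fold higher and TRIM22 3.03-fold. IRF7 was 2.23-fold higher, read at 7.35 and 8.02 in the HCT116 pair and 8.51 and 8.31 in the LS174T pair. PARP12, an ADP-ribosyltransferase that restricts viral translation, was 2.14-fold higher, at 8.78 and 8.55 in the HCT116 pair and 9.88 and 9.42 in the LS174T pair. Both LS174T arrays were above both HCT116 arrays for IRF7 and PARP12, again with no share over all genes. The modified arrays differed by only 0.29 for IRF7. MX1, a dynamin-like GTPase that traps viral nucleoprotein, was just outside the threshold at 0.83, and its neighbour MX2 differed by -0.14.

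Of these 14 genes 13 were measured on the modified arrays, where 12 had the same sign and 7 differed at least 2-fold the same way. The genes were picked for differing between the vector arrays of the same lines, and these counts were not made over all genes. They are thus no measure of how these genes compare with others. IFI27 had the opposite sign, at 7.12 on the array labelled HCT116-CDX1 and 5.76 in LS174T-siCDX1, a difference of -1.36 as read and -1.12 with the level under 6 set to 6. TRIM22 was under 6 on both modified arrays, at 5.96 and 5.80, so no direction is given for it there.

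**Figure D3:**
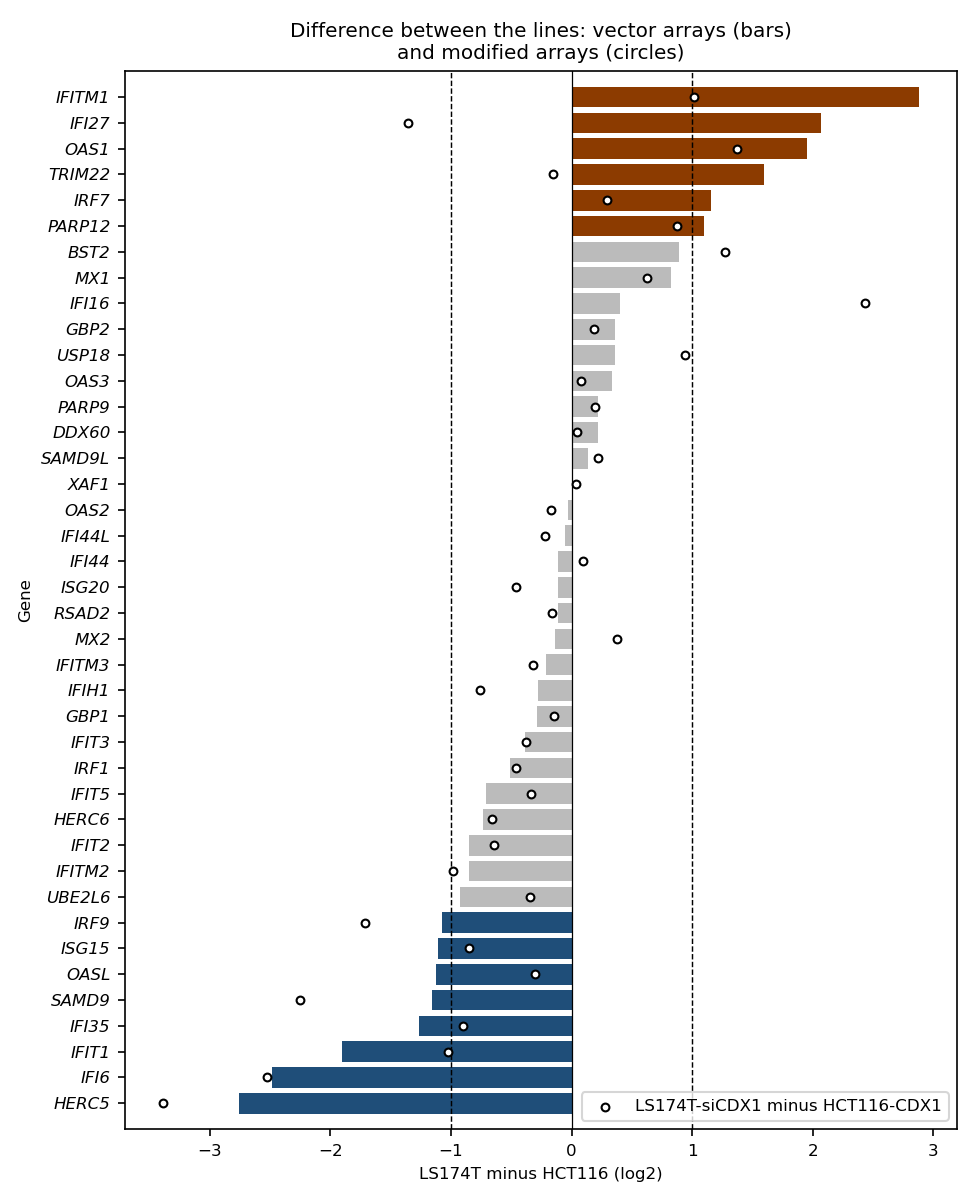
LS174T minus HCT116 (log2, horizontal axis) for each of the 40 genes: bars are the vector arrays, coloured where a measured gene differed at least 2-fold, and circles are the modified arrays. IFI27 stood at 2.07 on the vector arrays and, with a reading under 6 in LS174T-siCDX1, -1.36 on the modified arrays, and HERC5 and IFI6 were lower in LS174T on both.

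Probe sets of 1 gene did not always give the same difference between the lines. IFIT2 and IFIT3, which passed no threshold on the probe set used, stood at -0.85 and -0.39 between the vector arrays. The second probe set of IFIT2 was read at 6.46 in HCT116-Vec and 4.57 in LS174T-siVec, and that of IFIT3 at 7.17 and 5.34. With levels under 6 set to 6, these second probe sets differed by -0.46 and -1.17. Those values are bounds on the fall, and the bound reaches 2-fold for IFIT3 but not for IFIT2. The mean of probe sets, which takes in the readings under 6 as they are, gave -1.37 and -1.11 for these genes. By that mean 10 of 34 measured members were lower and 6 higher, beside 11.5% of all genes changed. Among the 20 genes with more than 1 probe set, readings under 6 included, all probe sets had the same sign in 16 between the vector arrays, 14 in the HCT116 pair and 6 in the LS174T pair. GBP1, a guanylate-binding protein, was read by the probe set at 6.04 in HCT116-Vec, while its 3 others lay between 3.54 and 4.76 over the 4 arrays.

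**Figure D4:**
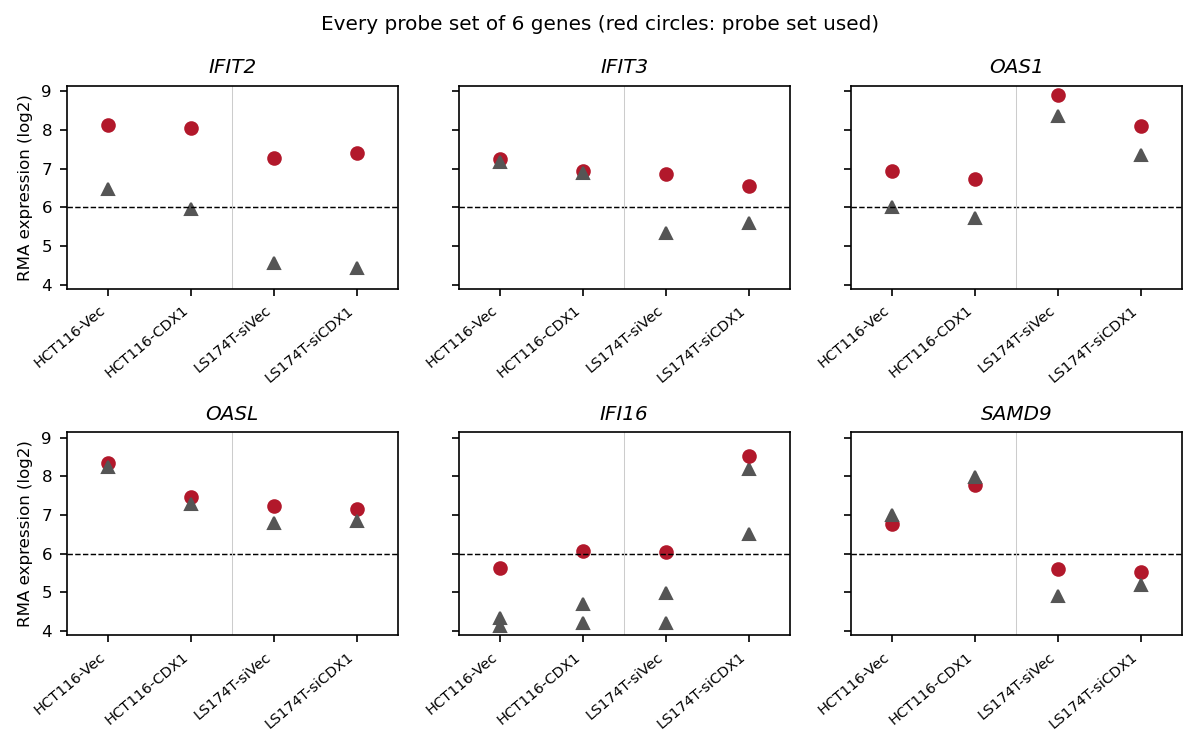
Every probe set of IFIT2, IFIT3, OAS1, OASL, IFI16 and SAMD9 on the 4 arrays (vertical axis, log2 RMA expression; red circles mark the probe set used, grey triangles the others, and the dashed line the level of 6). All 3 probe sets of IFI16 were highest in LS174T-siCDX1, and both of SAMD9 were highest on the array labelled HCT116-CDX1.

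Of the genes that make and receive the interferon signal, 4 interferon genes, 6 receptor chains and 4 JAK and STAT genes were measured, and 0 changed within a pair; at the shares of all genes that changed, 1.89% and 1.85%, lists of this size say little. Of 8 interferon genes read, 4 reached 6 on some array, IFNB1, IFNL1, IFNL2 and IFNG. Their highest reading was 7.68, and their largest difference within a pair was 0.262 in size, for IFNL2 in the LS174T pair. The 6 receptor chains, IFNAR1, IFNAR2, IFNLR1, IL10RB, IFNGR1 and IFNGR2, were read between 7.82 and 11.06 and differed by at most 0.404 within a pair. On the probe sets used, JAK1, JAK2, TYK2 and STAT3 were each higher on the array labelled HCT116-CDX1, by 0.15 to 0.40. They were lower in LS174T-siCDX1, at -0.40 to -0.11, all less than 2-fold. As the mean of its 3 probe sets JAK2 differed by -0.02 in the HCT116 pair.

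Of 95 further pathway genes listed, 89 were read. In the HCT116 pair 2 of 79 measured rose and 0 fell, or 2.53% beside 1.89% of all genes, with a median of 0.08. HLA-DRA, a chain of the class II antigen-presenting molecule, rose by 1.63. DDX60L, a relative of DDX60, rose by 1.07, and as the mean of its probe sets by 0.65, less than 2-fold. In the LS174T pair 1 of 81 rose and 1 fell, or 2.47% beside 1.85% of all genes, with a median of -0.13. In both pairs the share of these pathway genes that changed was thus near that of all genes, and the genes named are a description. STING1, the adaptor of cytoplasmic DNA sensing, fell 2.44-fold, from 8.72 to 7.44, and was read at 8.24 and 9.05 in the HCT116 pair. EIF2AK2, the RNA-activated kinase PKR, rose 2.09-fold, from 9.21 to 10.28, and as the mean of its probe sets it differed by 0.81.

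Between the vector arrays 16 of 82 measured pathway genes differed at least 2-fold, 13 higher and 3 lower in LS174T-siVec, with a median of 0.16. The changed share was 19.5%, beside 13.4% of all genes, of which 6.03% were higher and 7.33% lower. IRF8, an interferon regulatory factor best known in blood cells, was read at 7.49 in HCT116-Vec and 11.45 in LS174T-siVec, 15.6-fold higher. GBP3, a guanylate-binding protein, was at least 14.3-fold higher, and PSMB8, a subunit of the immunoproteasome, 10.9-fold. DTX3L, the partner of PARP9, was higher by 1.76 and CMPK2 by 2.34. TNFSF10, the death ligand TRAIL, was read at 5.66 in HCT116-Vec and 7.75 in LS174T-siVec, at least 3.36-fold higher against a level of 6. Lower in LS174T-siVec were DDX60L at -2.00, EIF2AK2 at -1.46 and ZNFX1 at -1.004. As means of probe sets DDX60L and EIF2AK2 differed by -0.92 and -0.86, while IRF5 and SOCS3 differed by -1.20 and -1.01. Among the higher genes PARP14 and PARP10 dropped to 0.61 and 0.50 by that mean. It gave 11 higher and 3 lower of 81 measured, beside 11.5% of all genes changed.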

How the data were processed

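Total RNA of 4 cell lines was measured on 1 array each. Per the submitters' processing notes, the authors used RMA, which subtracts background, equalises arrays and summarises probe sets; neither its version nor which arrays were normalised together is given in the sources used here. The authors deposited log2 values for 54675 probe sets, with array medians of 7.04 to 7.06, which were left as they were.

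The platform annotation lists 1 gene for 41097 probe sets, several for 1801, which were not used for any gene, and none for 11777; 41043 matched RefSeq genes of GRCh38.p14 by gene identifier. Coordinates are those of the RefSeq promoter table. Differences between 2 arrays were called at 2-fold where the brighter reached 6, a rule tested on simulated data. The members, pathway lists and alternatives were chosen with earlier results of these data known. Members that changed in a comparison are given on all 4 arrays and the others by range and count; the highest and lowest members of each role were not singled out, since levels of different probe sets cannot be compared. Pathway genes were named where they changed or carry the signal. Some genes named just outside the threshold, or as neighbours, were chosen after their values were seen. Alternatives were other floors, thresholds, scalings and probe set choices, and the modified in place of the vector arrays. Python 3.11.15, pandas 2.3.3 and statsmodels 0.14.6 were used.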

Additional observations from a re-analysis of the deposited data

Results flagged for a closer look

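In 4 of the 7 members that changed within a pair, the difference between the array with more CDX1 by its label and the one with less had opposite signs in the 2 lines. Such genes are lower on both modified arrays or higher on both, as were 28% and 25.3% of the 16530 genes measured in both pairs. The count is thus near the share of all genes and no feature of these members, and with 1 array per group it was not tested. For ISG15 the differences were -1.14 in HCT116 and 0.88 in LS174T, a gap of -2.02 (HCT116 minus LS174T). For IFI16 they were 0.45 and -2.48, a gap of 2.93, with HCT116-Vec under 6 at 5.63. With that level set to 6 the HCT116 difference of IFI16 was 0.08. For TRIM22 they were -0.24 and 2.00, a gap of -2.24, with the HCT116 levels close to 6. For IFIT1 they were -1.06 and 0.18, a gap of -1.24, with LS174T-siVec at 6.01 and LS174T-siCDX1 under 6 at 5.83. With the level under 6 set to 6 the LS174T difference of IFIT1 was 0.01 in size.

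A probe set annotated to both IFITM2 and IFITM1, left out because it names 2 genes, was 2.63 higher in LS174T-siVec than in HCT116-Vec, at 10.42 and 7.78. It differed by 0.86 in the HCT116 pair and by -0.99 in the LS174T pair. A probe set annotated to both RNF31 and IRF9 was left out likewise. Between the vector arrays it differed by -0.41, less than 2-fold, where the probe set of IRF9 alone differed by -1.08. The shared probe set differed by 0.23 in the HCT116 pair and by -0.18 in the LS174T pair.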

How the results depend on the processing

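Each group is 1 array, so no replicate could be left out, and the array number limits all values. Of 21 called differences of members, 8 stayed past the threshold the same way under every alternative that read the gene, and 12 did apart from the 3-fold threshold. SAMD9 in HCT116 dropped just under 2-fold after quantile normalization (0.998), with equal medians (0.993) and after the loess (0.991). Between the lines, 2 differences changed sign on the modified arrays in place of the vector arrays. IFI27 went to -1.36, or -1.12 with the level under 6 set to 6. TRIM22 went to -0.15, where both levels are under 6 and no direction can be read. On the modified arrays 10 of 36 measured members differed at least 2-fold (4 higher and 6 lower in LS174T), beside 13.5% of all genes.

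At 1.5-fold the changed members numbered 8 in HCT116, 8 in LS174T and 21 between the vector arrays, beside 9.48%, 4.96% and 26.5% of all genes, and at 3-fold 0, 3 and 7, beside 0.408%, 0.763% and 6.54%. Without probe sets ending in _x_at or _s_at, which leaves fewer genes read, they were 2 of 26 measured, 1 of 23 and 8 of 26. The shares of all genes at that setting were 1.80%, 1.73% and 12.8%. Every probe set of IFI16, TRIM22 and IFITM1 has such an ending, so these genes are not read there. The other pathway genes changed numbered 6, 5 and 29 at 1.5-fold and 1, 0 and 9 at 3-fold. With the mean of probe sets, where DDX60L and EIF2AK2 drop under 2-fold, 1 pathway gene changed in HCT116 and 1 in LS174T, and without shared probe sets 1 changed in HCT116. The no-floor, floor of 7, scaling and set-to-6 alternatives kept each count of changed members within 1.5 times that reported. The median difference of the members in HCT116, 0.06, was -0.05 with the mean of probe sets.
No paired analysis was possible because each group has 1 array and no difference was tested.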
